A study of Mus musculus with 11 samples.

Results

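The 10 genes followed here are those commonly used to recognise astrocytes, and they were read in RNA pulled down with the ribosomes of excitatory neurons, a cell type that is not astrocytic. The genes, with their Ensembl IDs, are Gfap (ENSMUSG00000020932), Aqp4 (ENSMUSG00000024411), Aldoc (ENSMUSG00000017390), Apoe (ENSMUSG00000002985), S100b (ENSMUSG00000033208), Slc1a2 (ENSMUSG00000005089), Slc1a3 (ENSMUSG00000005360), Gja1 (ENSMUSG00000050953), Sparc (ENSMUSG00000018593) and Sparcl1 (ENSMUSG00000029309). They were taken by name from a table of 77179 Ensembl gene IDs, and all 10 passed the filter on low values and were tested.

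The libraries came from the cortex and hippocampus of NEX-RiboTag mice, in which Cre recombinase expressed from the NEX (Neurod6) locus turns on, in excitatory neurons of the forebrain, a form of the ribosomal protein Rpl10a that carries eGFP. Beads against GFP then collect the tagged ribosomes with the mRNA bound to them. The pull-down (IP) was sequenced from animals of genotype NEX-Cre;Rpl10aeGFP/eGFP at 3 ages, P7, P14 and P21 (postnatal days), each with 3 libraries. Only at P7 was RNA of the whole tissue (input) also sequenced, in 2 libraries, replicate 1 with genotype NEX-Cre;Rpl10aeGFP/eGFP and replicate 2 with genotype Rpl10aeGFP/eGFP, which lacks Cre. Every group carried the Rpl10aeGFP allele on both chromosomes, and the NEX-Cre line was on a C57BL/6J background. Replicate numbers below are those of the pull-down unless input is named. The labels do not say how many animals went into a library.

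Astrocytes are the glia that take up transmitter and potassium around synapses, couple to each other through gap junctions, wrap blood vessels with endfeet and supply lipid and metabolites to neurons. Most are born around birth in the rodent forebrain and mature over the first postnatal weeks, when uptake, water channel and potassium channel genes reach adult levels. The 10 genes cover these jobs. Slc1a2 (GLT-1) and Slc1a3 (GLAST) encode the glutamate transporters, Gfap the intermediate filament, Aqp4 the endfoot water channel and Gja1 connexin 43. Aldoc is the brain aldolase of glycolysis, Apoe the main brain apolipoprotein, S100b a calcium-binding protein, and Sparc and Sparcl1 (hevin) are secreted proteins that act in opposite ways on synapse formation. Not all are exclusive to astrocytes: Apoe is also made by microglia, S100b by oligodendrocyte lineage cells, Sparc and Sparcl1 by vascular cells, and Slc1a2 in part by excitatory neurons.

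Values are TPM, transcript levels corrected for length and scaled by the authors to the same total in every library, so the sequencing depth is unknown and precision is judged only from the spread between libraries. Correlations of log2 values between libraries of a group ran between 0.988 and 0.994. Changes are log2 differences of TPM + 1 with standard errors from a limma fit over 19008 genes, and this scale understates changes of genes with low TPM. A change is said to have risen or fallen where its Benjamini-Hochberg adjusted p was below 0.05 over all genes tested. Nothing in the labels says whether the replicates came from separate litters or preparations, so the p-values measure the spread between these libraries. At P7, 10 excitatory neuron markers were kept in the pull-down at a median of 116% of their input level. They ranged from 63.7% for Camk2a to 157% for Neurod2, whereas 12 inhibitory neuron markers were kept at a median of 9.27%. Of the 10 excitatory markers, 4 were called higher than input and 2 lower, beside 18.6% and 51.1% of all genes. Under another scaling (median of ratios) 9 were higher and 0 lower. All 12 inhibitory markers were called lower under either scaling. Only 11 of the 12 passed the filter on low values with either input library left out.

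All 10 astrocyte genes were lower in the pull-down than in input at P7, and the libraries of the groups did not overlap for any of them. Their median level in the pull-down was 7.31% of input, with the lowest value for Apoe at 4.48% and the highest for Sparcl1 at 27.5%. Lower calls were made for 51.1% of all 19008 genes tested, and 56.3% of all genes had every pull-down library below every input library. The median change was -3.49 over the 10 genes and -0.33 over all genes. Of all genes, 18.6% were called higher. Median-of-ratios scaling moved the median of all genes by 0.42 and turned the split of calls over all genes to 6839 higher and 5190 lower, against 3541 higher and 9718 lower as deposited. With quantile normalisation the shift was 0.36 and the split 6256 higher and 6025 lower, and the 10 genes stayed lower under either scaling.

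Apoe, the most abundant of the 10 in whole tissue, had 98.0, 131 and 114 TPM in the 3 P7 pull-down libraries, against 2432 and 2673 TPM in the 2 inputs. Each pull-down library was therefore far below either input, at 3.67% to 5.37% over the pairs of libraries, and the change was -4.48 ± 0.15 (limma adjusted p = 1.2e-08). Aldoc had 8.45, 14.5 and 10.3 TPM in the P7 pull-down and 197 and 216 TPM in input, a change of -4.13 ± 0.19 (adjusted p = 5.35e-08). For both genes the highest pull-down library was replicate 2 and the lowest was replicate 1.

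Gfap, the classical filament marker, had 6.63, 10.9 and 7.71 TPM in the P7 pull-down, against 125 and 135 TPM in input. The change was -3.82 ± 0.20 (limma adjusted p = 9.14e-08). Aqp4 was at 2.22, 3.51 and 3.18 TPM in the pull-down and at 39.0 and 43.9 TPM in input, a change of -3.43 ± 0.16. Gfap stood at 6.47% of input and Aqp4 at 7.17%, and their ranges over library pairs, 4.92% to 8.69% and 5.07% to 8.99%, overlapped. Gja1 was at 4.86, 6.97 and 6.18 TPM in the pull-down, against 74.2 and 87.0 TPM in input, and changed by -3.55 ± 0.13.

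The 2 glutamate transporters stood at different shares of input. Slc1a3 had 10.7, 14.5 and 13.7 TPM in the P7 pull-down and 143 and 153 TPM in input, or 8.75% of input. Slc1a2 had 15.5, 22.4 and 25.0 TPM in the pull-down and 102 and 132 TPM in input, or 18.0% of input. The ranges over library pairs did not overlap, being 6.97% to 10.1% for Slc1a3 and 11.8% to 24.6% for Slc1a2. Their order also differed between fractions, since Slc1a2 was 1.61 times Slc1a3 on average in the pull-down (1.45 to 1.83 over the 3 libraries) and 0.787 times Slc1a3 in input (0.712 and 0.861). The difference between these genes in their change was not tested.

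Among the secreted proteins, Sparcl1 was kept most. It had 152, 182 and 167 TPM in the P7 pull-down, against 610 and 608 TPM in input, a change of -1.86 ± 0.08 (limma adjusted p = 4.48e-08). Sparc, its antagonist at synapses, had 15.1, 25.6 and 15.9 TPM in the pull-down and 273 and 260 TPM in input, a change of -3.79 ± 0.20. Sparcl1 was 9.21 times Sparc on average in the P7 pull-down and 2.28 times in input. S100b had the lowest mean of the 10 in both fractions, with 1.82, 2.39 and 1.95 TPM in the pull-down and 19.4 and 23.2 TPM in input, or 9.65% of input.

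**Figure D1:**
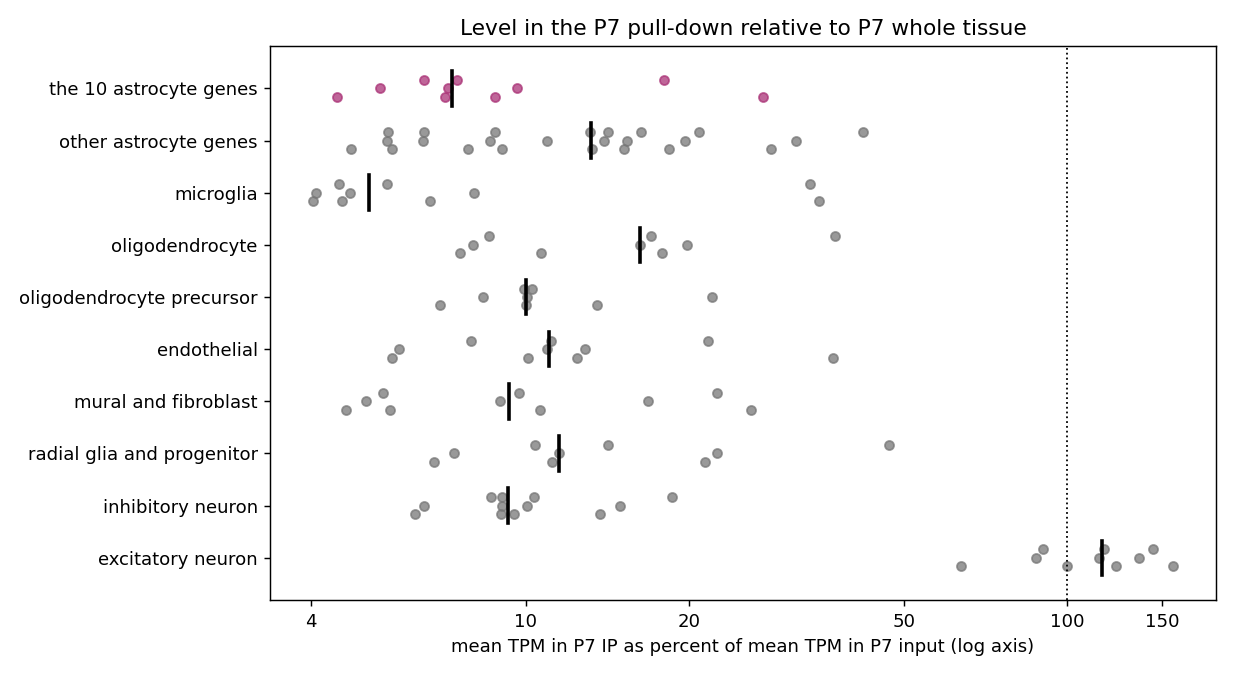
Mean TPM in the P7 pull-down as a percent of mean TPM in P7 input, on a log axis, for each gene of the 10 astrocyte genes and of 9 other marker lists; each point is a gene, and vertical bars are list medians. The 10 astrocyte genes lie between 4.48% and 27.5% and the excitatory neuron markers between 63.7% and 157%.

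Apoe and Sparcl1 changed places between the fractions. In the P7 pull-down Sparcl1 ranked highest, at 167 ± 14.7 TPM, above Apoe at 114 ± 16.4 TPM (SD, n = 3 libraries). In P7 input Apoe ranked highest, at 2552 ± 170.1 TPM, above Sparcl1 at 609 ± 1.21 TPM (SD, n = 2 libraries). Of the summed TPM of the 10 genes, Apoe held 31.3% in the P7 pull-down and 61.2% in input, whereas Sparcl1 held 46.0% in the pull-down and 14.6% in input. The summed level was 316 to 413 TPM in the P7 pull-down and 4014 to 4330 TPM in input. Below the top pair, the order in the P7 pull-down was Slc1a2, Sparc, Slc1a3, Aldoc, Gfap, Gja1, Aqp4 and S100b, and the library ranges of neighbours overlapped except between Sparc and Slc1a3 and between Gja1 and Aqp4.

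Other gene lists were lower as well at P7, beside lower calls for 51.1% of all genes. Each of 24 further astrocyte genes was lower in the pull-down, with a median of 13.2% of input, between 4.74% for Gpr37l1, an astrocyte receptor, and 41.9% for Slc6a11, the GABA transporter GAT-3. The 10 microglial markers were kept at a median of 5.13%, 8 oligodendrocyte precursor markers at 10.0% and 10 endothelial markers at 11.0%. For 10 mural and fibroblast markers the median was 9.32% and for 9 radial glia markers 11.5%. With either input library left out, only 8 endothelial, 7 mural and fibroblast and 8 radial glia markers passed the filter on low values. For 9 oligodendrocyte markers the median was 16.2%; Opalin was left out because it was listed at 0 in an input library. No difference between these lists was tested. Astrocytes and these other cells cannot be told apart here as sources of shared genes such as Apoe.

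Over the second postnatal week, 8 of the 10 genes rose in the pull-down, with a median change of 0.72, beside 0.03 over all genes. Higher calls were made for 26.7% of all genes and lower calls for 22.8%. The 2 without a call were Gfap and Sparcl1. For 8 genes every P14 library was above every P7 library, as for 31.1% of all genes; Gfap and Sparc overlapped. In bulk libraries such as these, a change in the number of cells that give a transcript and a change in its level per cell cannot be told apart. No pull-down from Cre-negative animals and no input at P14 or P21 was sequenced. A change between ages in the carry-over of RNA from cells without tagged ribosomes was therefore not tested. Leaving out P7 replicate 2 brought the count to 10, and leaving out P7 replicate 1, P14 replicate 1 or P14 replicate 2 brought it to 6.

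S100b showed the largest change of the 10. It was at 1.82, 2.39 and 1.95 TPM at P7, at 18.0, 13.5 and 11.5 TPM at P14, and at 31.8, 30.7 and 31.6 TPM at P21, so that every library stood above every library of the age before. The P14 mean was 6.98 times the P7 mean, with a change of 2.31 ± 0.14 (limma adjusted p = 7.13e-07). Its P21 pull-down level is set beside 19.4 and 23.2 TPM in P7 input, which differs in both age and fraction. Slc1a2 followed, at 15.5, 22.4 and 25.0 TPM at P7, at 87.2, 76.8 and 79.2 TPM at P14, and at 75.8, 73.4 and 96.4 TPM at P21. Its change between P14 and P7 was 1.92 ± 0.17 (adjusted p = 6.29e-06), a ratio of means of 3.86.

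Aldoc, the glycolytic enzyme, was at 8.45, 14.5 and 10.3 TPM at P7, at 33.1, 26.9 and 24.3 TPM at P14, and at 43.6, 53.2 and 56.6 TPM at P21. The ages did not overlap, and P14 was 1.29 ± 0.17 above P7 (limma adjusted p = 0.00013). Apoe was at 98.0, 131 and 114 TPM at P7, at 216, 186 and 175 TPM at P14, and at 272, 357 and 368 TPM at P21. It too had separate ranges at each age, with a P14 change of 0.75 ± 0.13 (adjusted p = 0.000865).

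Slc1a3 was at 10.7 to 14.5 TPM at P7, at 24.2 to 28.5 TPM at P14 and at 18.8 to 27.8 TPM at P21. It rose by 0.96 ± 0.14 at P14 (limma adjusted p = 0.000239). Gja1 was at 4.86 to 6.97 TPM at P7, at 8.99 to 10.9 TPM at P14 and at 10.1 to 10.3 TPM at P21. The connexin rose by 0.69 ± 0.12 at P14 (adjusted p = 0.000575).

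Sparc was at 15.1 to 25.6 TPM at P7, at 24.4 to 29.0 TPM at P14 and at 26.7 to 37.0 TPM at P21. Its P14 change of 0.53 ± 0.18 passed (limma adjusted p = 0.0293) although the ranges overlapped, with adjusted p from 0.000807 to 0.109 over 21 alternative settings. The call was lost without P7 replicate 1 (0.109), P7 replicate 3 (0.099), P14 replicate 1 (0.074) or P14 replicate 2 (0.0845). With no filter on low values it was lost as well (0.0923). Aqp4, the water channel, was at 2.22 to 3.51 TPM at P7, at 3.78 to 5.13 TPM at P14 and at 3.21 to 4.21 TPM at P21. Its P14 change of 0.43 ± 0.15 passed narrowly (adjusted p = 0.0317, with 0.0204 to 0.118 over the settings). The Aqp4 call was lost without P7 replicate 1 (0.113), P14 replicate 1 (0.118) or P14 replicate 2 (0.0512). It was also lost with no filter on low values (0.0858) and in a fit of the compared groups alone (0.0542).

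Gfap was at 6.63, 10.9 and 7.71 TPM at P7, at 12.3, 12.6 and 9.90 TPM at P14, and at 11.9, 15.0 and 18.1 TPM at P21. P7 replicate 2 lay within the P14 range, and P14 exceeded P7 by 0.44 ± 0.18, which missed the threshold (limma adjusted p = 0.0586, with 0.0103 to 0.200 over the settings). It passed without P7 replicate 2 (0.62, adjusted p = 0.0103), P14 replicate 3 (0.0423), P21 replicate 1 (0.0429) or P21 replicate 3 (0.0458). Sparcl1 was at 152, 182 and 167 TPM at P7, at 183, 200 and 191 TPM at P14, and at 175, 167 and 197 TPM at P21. Its P14 libraries all lay just above those of P7, and the change of 0.20 ± 0.08 did not pass (adjusted p = 0.0516, with 0.0204 to 0.180 over the settings). It passed without P7 replicate 2 (0.0204), P21 replicate 2 (0.047) or P21 replicate 3 (0.0303).

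**Figure D2:**
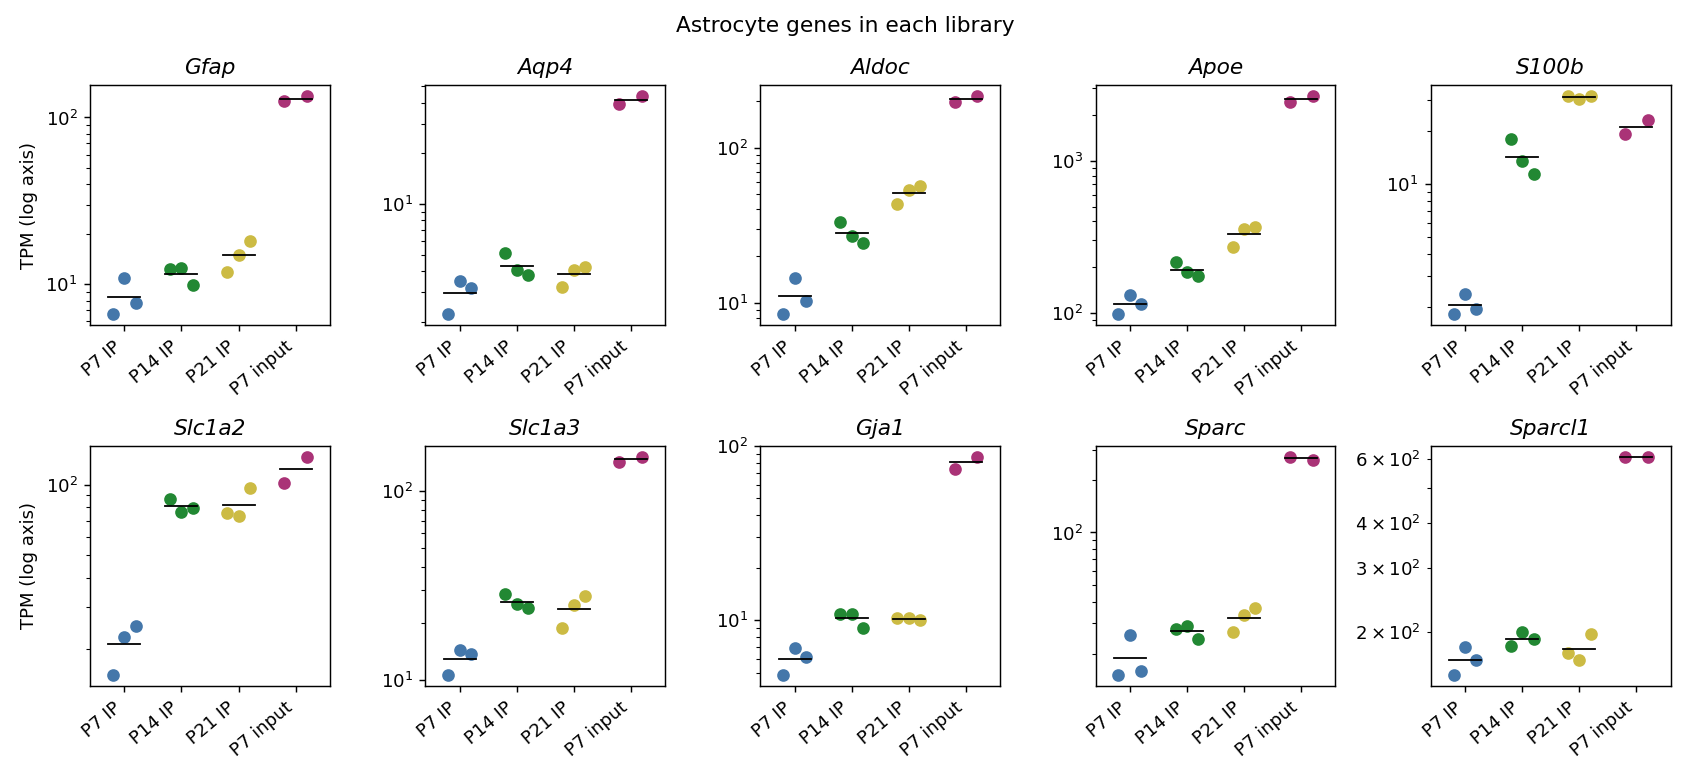
TPM of each of the 10 astrocyte genes in every library, on log axes, for the pull-down at P7, P14 and P21 and for P7 input; points are libraries and bars are group means. S100b and Slc1a2 rise most by P14, and Sparcl1 stays between 152 and 200 TPM in all pull-down libraries.

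Over the third postnatal week S100b, Aldoc and Apoe rose again, whereas the other 7 genes did not pass. Higher calls were made for 8.53% of all genes and lower calls for 19.7%, and the median change was 0.12 over the 10 genes and -0.08 over all genes. Median-of-ratios scaling gave 2706 higher and 2255 lower calls over all genes, against 1621 higher and 3749 lower as deposited. The calls for S100b, Aldoc and Apoe were made under all 21 alternatives.

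S100b at P21 was 2.19 times its P14 mean, a change of 1.10 ± 0.14 (limma adjusted p = 0.000351). Aldoc was 1.82 times higher, a change of 0.84 ± 0.17 (adjusted p = 0.00509), and Apoe 1.73 times higher, a change of 0.78 ± 0.13 (adjusted p = 0.00203). No P21 library of these genes overlapped the P14 range, a separation upwards that 13.7% of all genes showed.

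The glutamate transporters and the connexin showed no rise beyond the spread between libraries. Slc1a2 averaged 81.9 ± 12.7 TPM at P21 and 81.0 ± 5.45 TPM at P14 (SD, n = 3 libraries each), a change of 0.01 ± 0.17. Gja1 averaged 10.2 ± 0.115 TPM at P21 and 10.3 ± 1.11 TPM at P14, a change of 0.00 ± 0.12. Slc1a3 changed by -0.13 ± 0.14, Aqp4 by -0.14 ± 0.15 and Sparcl1 by -0.09 ± 0.08, each with overlapping libraries. Gfap changed by 0.33 ± 0.18 (limma adjusted p = 0.186) and Sparc by 0.24 ± 0.18 (adjusted p = 0.347). The sign of the changes near 0, those of Slc1a2, Slc1a3, Gja1 and Sparcl1, turned under at least 1 alternative.

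Whether a gene moved alike in both weeks was tested directly, as the change over the later week minus that over the earlier one. The P14 libraries enter both changes with opposite sign. For 4 of the 10 genes the later change was smaller, namely Slc1a2 by -1.92 ± 0.29 (limma adjusted p = 0.00142), S100b by -1.21 ± 0.24 (0.00526), Slc1a3 by -1.09 ± 0.24 (0.00964) and Gja1 by -0.69 ± 0.20 (0.0303). Lower calls in this test were made for 16.8% of all genes (3195) and higher calls for 7.46% (1418). That split turned to 1993 lower and 2275 higher under median-of-ratios scaling, lower calls fell to 2064 without P14 replicate 2, and higher calls fell to 870 without P14 replicate 1. For Apoe the difference was 0.025 ± 0.23 (adjusted p = 0.95) and for Aldoc -0.44 ± 0.30 (0.326). S100b thus rose in both weeks and, on the log2 scale, by less in the later one. Its means were 2.05 TPM at P7, 14.3 TPM at P14 and 31.4 TPM at P21, so the gain in TPM was larger in the later week. At a pseudocount of 5 TPM the S100b difference no longer passed (-0.51, limma adjusted p = 0.0657, with 0.00246 to 0.0657 over the settings). The Gja1 difference was lost under 7 of 21 alternatives, among them median-of-ratios scaling (-0.54, adjusted p = 0.082) and leaving out P14 replicate 1 (0.114), P14 replicate 2 (0.116), P21 replicate 1 (0.0519) or P21 replicate 2 (0.0525).

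**Figure D3:**
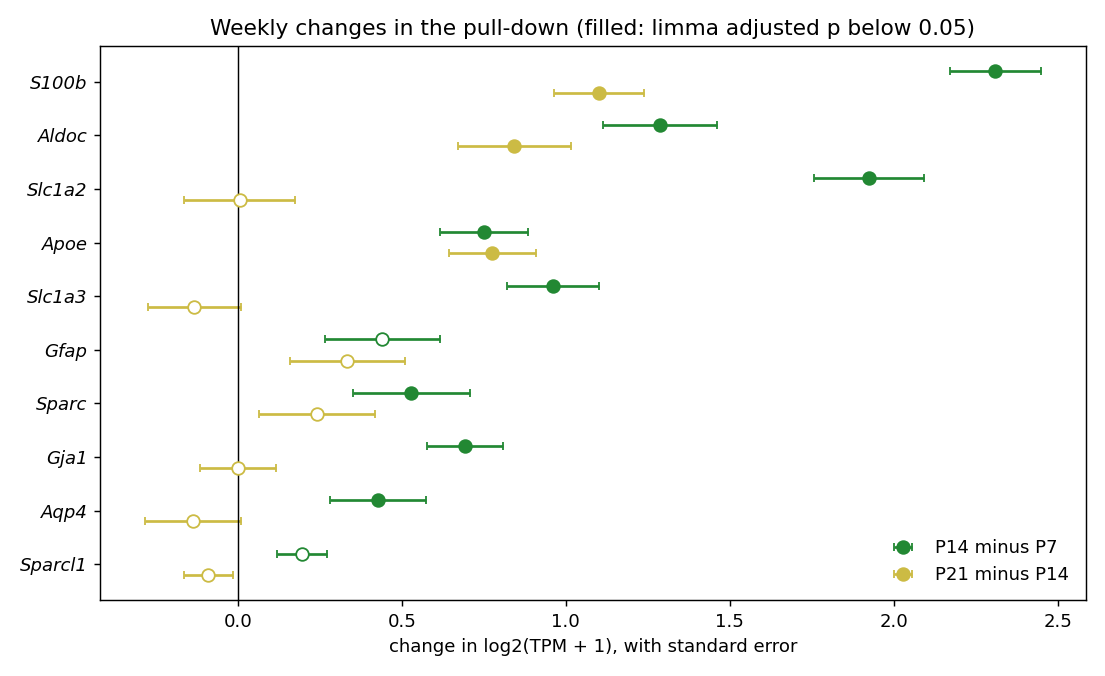
Change in log2(TPM + 1) of each astrocyte gene in the pull-down for P14 minus P7 (green) and P21 minus P14 (yellow); points are limma estimates, filled where the adjusted p was below 0.05, and bars are standard errors. S100b, Aldoc and Apoe have filled points for both weeks, and Slc1a2 lies at 1.92 for the earlier and 0.01 for the later week.

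The 250 bases before the start are shown for S100b, Aldoc and Gfap, which were picked by their outcome. The first pair rose in both weeks, while Gfap passed in neither week alone but rose over both together. The sequences come from RefSeq for build GRCm38.p6, which is not the build of the deposited values (mm39), and genes were matched by symbol only. They read 5′ to 3′ on the gene's strand, with capitals marking TTGGC or its reverse complement, the half-site bound by the NFI factors, which are known regulators of astrocyte genes. S100b lies on the plus strand at chr10:76253586-76253835, Aldoc on the plus strand at chr11:78322823-78323072 and Gfap on the minus strand at chr11:102897201-102897450.
S100b: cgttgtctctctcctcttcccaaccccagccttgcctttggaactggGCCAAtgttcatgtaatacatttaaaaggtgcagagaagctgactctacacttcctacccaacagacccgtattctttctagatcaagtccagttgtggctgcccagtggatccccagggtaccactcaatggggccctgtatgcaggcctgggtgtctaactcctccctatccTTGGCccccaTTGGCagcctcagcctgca
Aldoc: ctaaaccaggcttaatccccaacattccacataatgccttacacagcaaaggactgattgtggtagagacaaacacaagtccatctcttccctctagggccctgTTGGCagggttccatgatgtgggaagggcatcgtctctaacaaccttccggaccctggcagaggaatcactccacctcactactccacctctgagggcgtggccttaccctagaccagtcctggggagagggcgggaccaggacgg
Gfap: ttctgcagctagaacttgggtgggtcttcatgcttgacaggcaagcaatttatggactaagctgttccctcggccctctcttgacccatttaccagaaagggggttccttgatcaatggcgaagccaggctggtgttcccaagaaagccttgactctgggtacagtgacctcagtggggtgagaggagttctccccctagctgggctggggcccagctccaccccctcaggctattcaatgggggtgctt

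S100b holds the letters at 3 places, from -29 to -25 and from -19 to -15 on its own strand and from -203 to -199 on the other strand, counted back from the gene start. Aldoc holds them at 1 place, from -146 to -142, and Gfap has no match. Windows were available for 6 of the 10 genes, adding Slc1a3, Gja1 and Sparc, and 2 of these 6 hold TTGGC on either strand, as do 41.5% of 32851 windows of the same length. TATAAA was found in 1 of the 6 and in 12.4% of all windows, TTCNNNGAA (a STAT site) in 1 and in 7.02%, and ACAAAG (a SOX core) was not found in the 6 and stands in 16.5%. Slc1a3, Gja1 and Sparc, which rose at P14, hold no TTGGC, and Apoe, which rose in both weeks, is not among the 6. A match describes these letters and is not a measured binding site. Any link between the letters and the changes was not tested.

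Over both weeks together, 8 of the 10 genes rose, as did 27.3% of all genes, and the median change was 0.80, beside -0.04 over all genes; 32.6% of all genes fell. The 8 that rose had no library overlap between the ages, as was the case upwards for 29.3% of all genes. The rise was 15.3-fold for S100b (3.41 ± 0.14, limma adjusted p = 1.88e-08), 4.62-fold for Aldoc (2.13 ± 0.17), 3.90-fold for Slc1a2 (1.93 ± 0.17) and 2.91-fold for Apoe (1.53 ± 0.13) as ratios of mean TPM. Smaller rises were seen for Slc1a3 at 0.83 ± 0.14, Gfap at 0.78 ± 0.18, Sparc at 0.77 ± 0.18 and Gja1 at 0.69 ± 0.12. Aqp4 at 0.29 ± 0.15 (adjusted p = 0.11) and Sparcl1 at 0.11 ± 0.08 (adjusted p = 0.249) did not pass. Sparcl1 passed under median-of-ratios scaling alone (0.17, adjusted p = 0.0338, with 0.0338 to 0.675 over the settings).

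Both the summed level of the 10 genes in the pull-down and the share each held in it differed between ages. The summed TPM of the 10 genes was 316 to 413 at P7, 553 to 622 at P14 and 669 to 848 at P21. Sparcl1 held 46.0% of that sum at P7, 32.7% at P14 and 23.8% at P21. Apoe held 31.3%, 32.8% and 43.5% at the same ages, and S100b 0.563%, 2.43% and 4.16%. Slc1a2 held 5.73% at P7, 13.8% at P14 and 10.7% at P21, beside 2.79% in P7 input. Ranked by mean, Sparcl1 led at P7, Apoe and Sparcl1 had overlapping ranges at P14, and Apoe led at P21 with no overlap. S100b, the lowest in mean at P7, stood above Gfap and Gja1 at P21, when its lowest library was at 30.7 TPM and the highest of Gfap at 18.1 TPM.

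**Figure D4:**
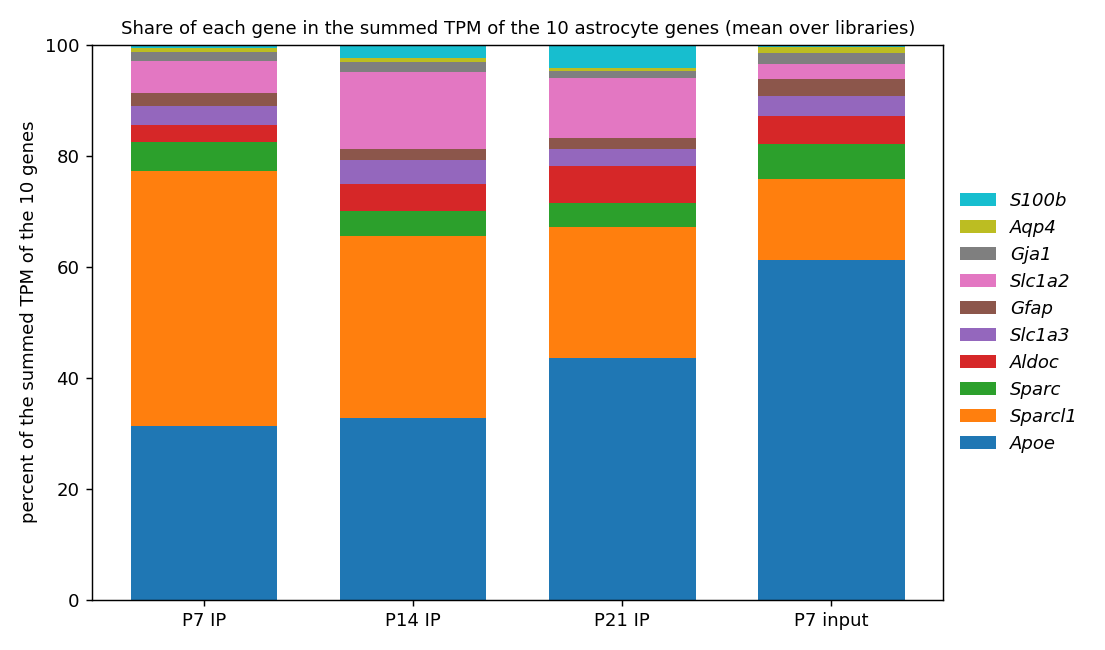
Mean share of each gene, in percent, in the summed TPM of the 10 astrocyte genes for the pull-down at P7, P14 and P21 and for P7 input. Sparcl1 holds 46.0% at P7 and 23.8% at P21, and Apoe holds 61.2% in input.

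Relatives of the 10 genes were read from lists written from general knowledge, with earlier results of these data known. Each of these family lists also holds those of the 10 genes that belong to it, and its counts include them. Of 12 genes of glutamate transport and the glutamine cycle, all were lower in the P7 pull-down than in input, and 6 rose and 3 fell between P7 and P21. For the counts of this and the next lists, the shares over all genes were 51.1% lower than input at P7. Between P7 and P21, 27.3% of all genes rose and 32.6% fell. Slc1a1, the neuronal glutamate transporter EAAC1, averaged 31.3 TPM at P7, 47.3 TPM at P14 and 39.1 TPM at P21, beside 48.7 TPM in P7 input. It was lower than input by -0.62 ± 0.08, a call lost under median-of-ratios scaling (-0.14, adjusted p = 0.101). Slc1a2 was 0.665 times Slc1a1 at P7, 1.71 times at P14 and 2.09 times at P21 in the pull-down. Glul, the glutamine synthetase of astrocytes, was -2.60 ± 0.10 against input at P7 and 0.94 ± 0.09 higher at P21 than at P7.

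In the connexin list, Gjb6 and Gjc1 went opposite ways. Gjb6, connexin 30 and the partner of Gja1 in astrocytes, averaged 1.35 ± 0.210 TPM at P7, 10.5 ± 3.54 TPM at P14 and 10.4 ± 1.14 TPM at P21 (SD, n = 3 libraries each), beside 10.2 TPM in P7 input. It rose by 2.25 at P14, so that Gja1 was 4.46 times Gjb6 at P7 and 1.03 times at P14. Gjc1, connexin 45, was the list's only gene higher in the P7 pull-down than in input (0.60 ± 0.14) and fell by 2.24 between P7 and P21. Counts over the 7 connexins were 1 higher and 5 lower against input (4 lower under median-of-ratios scaling), and 5 higher and 2 lower at P21 against P7.

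Aldoa, the aldolase neurons mainly use, rose as Aldoc did. It averaged 456 TPM at P7, 877 TPM at P14 and 1412 TPM at P21, beside 691 TPM in P7 input, and was 1.63 ± 0.08 higher at P21 than at P7. Aldoa was 42.6 times Aldoc in the P7 pull-down, 28.2 times at P21 and 3.35 times in input. Its call against input (-0.60 ± 0.09) was lost under median-of-ratios scaling (-0.11, adjusted p = 0.362). In the lipoprotein list of 12, 11 genes were lower than input at P7, or 7 lower and 2 higher under median-of-ratios scaling. Only 11 of the 12 passed the filter on low values when either input library was left out. Between P7 and P21, 5 of the 12 rose and 5 fell. Clu, clusterin, was -1.81 against input and 1.05 higher at P21 than at P7, and Apoe was 1.58 times Clu in the P7 pull-down, 2.21 times at P21 and 10.02 times in input.

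S100 genes split. S100a10, the annexin partner p11, averaged 448 TPM in the P7 pull-down and 237 TPM in input, a change of 0.91 ± 0.09, and it fell by 2.14 between P7 and P21. S100a11 fell by 3.05 over the same time. S100a1 moved as S100b did in direction, -3.75 against input and 1.32 at P21 against P7. Over the 8 genes, 1 was higher and 7 lower against input (6 lower under median-of-ratios scaling), and 6 rose and 2 fell by P21. Among 8 intermediate filament genes, 7 were lower than input and 1 higher, or 5 lower and 2 higher under median-of-ratios scaling. Only 7 of the 8 passed the filter on low values when either input library was left out. By P21, 4 of the 8 filament genes rose and 1 fell. Vim, the other glial filament, averaged 6.30 TPM in the P7 pull-down and 56.4 TPM in input. All 8 SPARC family genes were lower than input, or 6 under median-of-ratios scaling and 7 with quantile normalisation. By P21, 3 of them rose and 2 fell, beside 27.3% and 32.6% of all genes, or 5 rose under median-of-ratios scaling. All 11 genes of the endfoot water and dystroglycan list were lower as well. Under median-of-ratios scaling 10 of them were lower, and with quantile normalisation 9 were lower and 1 higher. Only 8 of the 11 passed the filter on low values when either input library was left out. By P21, 4 rose and 2 fell, with Kcnj10, the potassium channel Kir4.1, at 1.46 above P7.

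Of the 24 further astrocyte genes, 17 rose and 1 fell at P14, with a median of 0.72, beside 26.7% and 22.8% of all genes. At P21 against P7, 20 rose and 1 fell, with a median of 0.79, beside 27.3% and 32.6% of all genes. The gene of the 24 that fell in both was Slc6a11. It averaged 45.7 TPM at P7, 22.4 TPM at P14 and 10.3 TPM at P21 and fell by 2.04 between P7 and P21. Among the largest rises at P21 against P7 were Gjb6 at 2.28, Htra1, a secreted protease, at 2.04 and Aldh1l1, a folate enzyme widely used as an astrocyte marker, at 1.84. Aldh1l1 averaged 4.78 TPM at P7, 19.5 TPM at P14 and 19.6 TPM at P21. In the later week 6 of the 24 rose and 2 fell, beside 8.53% and 19.7% of all genes, and the median was 0.15. Most of these 6 calls were lost when any of several libraries was left out. Of the calls, 1 was left without P14 replicate 3 or without P21 replicate 2, and 2 without P14 replicate 2 or without P21 replicate 3. With no filter on low values 1 was left. The test between weeks gave 10 lower calls of 24, beside 16.8% of all genes. The lower calls in the later week were Slc6a11 (-1.04) and Atp1b2, a sodium pump subunit (-0.44).

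Markers of other cells moved in the pull-down over the same ages. Between P7 and P21, 27.3% of all genes rose and 32.6% fell. The 10 oligodendrocyte markers all rose between P7 and P21, with a median change of 3.34, and their summed level was 32.9 to 36.8 TPM at P7, 304 to 410 TPM at P14 and 510 to 732 TPM at P21, beside 200 to 270 TPM in P7 input. Mbp, a myelin protein gene, rose by 3.76 and Mog, another, by 3.19. Of 10 microglial markers, 9 rose and 1 fell, with a median of 1.05, and they summed to 25.2 to 30.9 TPM at P7, 34.4 to 41.9 TPM at P14 and 37.1 to 50.2 TPM at P21, beside 198 to 256 TPM in P7 input. Of 8 oligodendrocyte precursor markers 5 rose, with a median of 0.52. Medians were 0.18 for endothelial genes, 0.00 for mural and fibroblast genes, -0.02 for radial glia genes, -0.02 for inhibitory neuron genes and -0.15 for excitatory neuron genes. Of 12 inhibitory neuron markers 5 rose and 2 fell, and of 9 radial glia markers 1 rose and 3 fell. Of 10 endothelial markers 3 rose and 1 fell, and of 10 mural and fibroblast markers 1 rose and 2 fell. The excitatory median covers moves in both directions, with 4 of 10 markers higher and 5 lower, and their summed level was 3339 to 3827 TPM at P7, 6838 to 7680 TPM at P14 and 8116 to 9162 TPM at P21, beside 3001 to 3116 TPM in P7 input. Slc17a7, the vesicular glutamate transporter of cortical neurons, averaged 628 TPM at P7 and rose by 1.72 between P7 and P21. The part of these cells in the changes of S100b, Apoe and the other astrocyte genes was not tested, and no input was sequenced at P14 or P21.

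**Figure D5:**
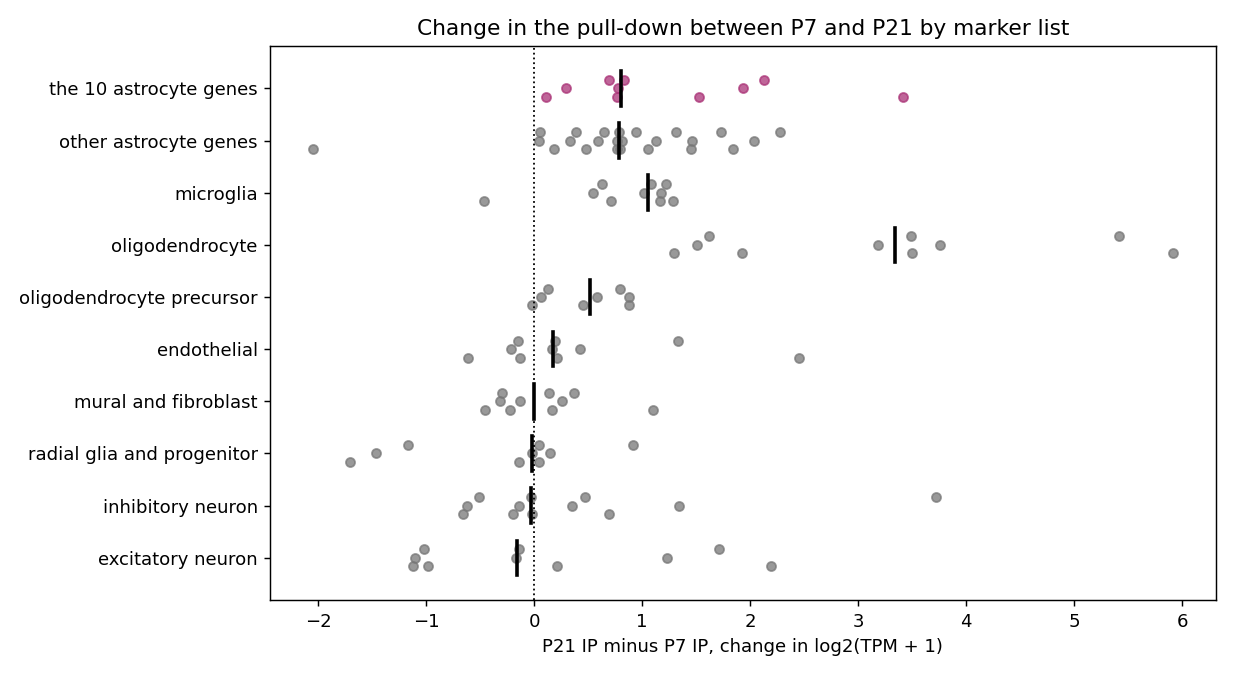
Change in log2(TPM + 1) between P7 and P21 in the pull-down (P21 minus P7) for each gene of the 10 astrocyte genes and of 9 other marker lists; points are genes and black bars list medians. The median is 0.80 for the 10 astrocyte genes, 0.79 for the further astrocyte genes, 3.34 for oligodendrocyte genes and 1.05 for microglial genes.

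Libraries of an age also kept some of their ranks across these lists. P7 replicate 1 was the lowest of its age for all 10 astrocyte genes and P7 replicate 2 the highest for 9 of them. P7 replicate 2 was also highest for 21 of the 24 further astrocyte genes, 8 of 10 microglial, 8 of 10 oligodendrocyte 10 of 12 inhibitory neuron and 8 of 10 endothelial markers, and for 3 of 10 excitatory neuron markers, of which P7 replicate 1 was lowest for 7. P14 replicate 3 was lowest for 8 of the 10 astrocyte genes, all 10 microglial and 6 of 10 excitatory neuron markers, but for 2 of 10 endothelial markers. At P21 replicate 1 was lowest for 6 of the 10, for all 10 oligodendrocyte markers and for 9 of 10 microglial markers. The Cre-negative input was the higher of the pair for 8 of the 10 genes. What sets these ranks was not tested.

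The genes whose levels followed the mean of the 10 most closely, as a description over libraries that share groups, were found among 9208 candidates. Over all 11 libraries they included Hepacam, an astrocyte adhesion protein (Pearson r = 0.997), Glul (0.996), S1pr1, a sphingosine phosphate receptor (0.996), and mt-Cytb, a mitochondrially encoded cytochrome (0.995). The 10 genes themselves had r between 0.653 for S100b and 0.988 for Apoe. Over the 9 pull-down libraries alone they were Mlc1, an endfoot membrane protein (0.989), Kcnj10 (0.984), Epas1, a hypoxia-inducible factor (0.984), Slc4a4, a bicarbonate transporter (0.981), and Ubald1 (0.981). Ubald1 differed from the rest in that its pull-down mean of 128 TPM at P7 exceeded the 94.5 TPM of P7 input.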

How the data were processed

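Polyadenylated RNA of 9 pull-down and 2 whole-tissue libraries was sequenced (per the labels' protocols), and the values the authors deposited are TPM for 77179 Ensembl IDs. The submitters' processing notes name Salmon 1.10.0, fastp 1.0.1 and DESeq2 1.46.0 with build mm39; what each was used for, the annotation and the use of strand are not stated there. TPM keeps no depth and sums to a fixed total, so a shift in a few abundant genes moves all others.

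Symbols were matched for 50886 IDs and for 16530 of the 19008 genes tested, which reached 1 TPM or more in 2 or more libraries. Aldoa had more than 1 ID, and the one with the highest mean was used. The limma package (3.58.1, R 4.3.3) was run on log2(TPM + 1), giving each of the 4 groups its mean in a single model of the 11 libraries, which leaves 7 residual degrees of freedom. Variances were moderated with the trend option, p-values were adjusted by Benjamini-Hochberg over every gene tested, and calls are at adjusted p below 0.05. The 2 input libraries, which differ in Cre, form 1 group. The 5 comparisons share libraries and are not independent of each other. Ratios of means and percents of input were computed from TPM. The code was tested on simulated data.

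The members and gene lists were chosen with earlier results of these data known. The 10 genes are always named, genes of the family lists may be named, and of the further astrocyte genes those with the largest called changes, up to 3 in each direction per comparison; of other cell type lists the first 2 genes may be named. Camk2a and Opalin were named after their values were seen. Genes of like pattern are the 5 with the highest Pearson r with the mean standardised value of the members, among symbols that reached 10 TPM in some group mean. One of them is not reported here.

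Alternatives were other pseudocounts (0.1 and 5 TPM), other filters (any value above 0, or a mean of 5 TPM or more), other scalings (median of ratios, quantile, or with mitochondrial, haemoglobin and ribosomal protein genes removed), no variance trend, a replicate block, a fit of the compared groups alone, and leaving out each library. Figures used matplotlib 3.10.9 (Python 3.11.15).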

Additional observations from a re-analysis of the deposited data

Results flagged for a closer look

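For 4 of the 10 genes the change in the pull-down over the third postnatal week (P21 minus P14) differed from that over the second (P14 minus P7), by a test of the difference itself in the limma fit. The difference was -1.92 for Slc1a2, which changed by 0.01 in the later week and by 1.92 in the earlier one. It was -1.21 for S100b (1.10 in the later week and 2.31 in the earlier), -1.09 for Slc1a3 (-0.13 and 0.96 in that order) and -0.69 for Gja1 (0.00 and 0.69). The same P14 libraries enter both changes with opposite sign, and 16.8% of all genes tested had a lower call in this test and 7.46% a higher one. Median-of-ratios scaling turned that split over, with 1993 lower and 2275 higher calls, and the Gja1 difference no longer passed under it (-0.54).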

How the results depend on the processing

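All 10 genes stayed lower in the P7 pull-down than in input under every one of the 21 alternatives. Counts over all genes moved more. For P7 pull-down against input, lower calls were 5190 with median-of-ratios scaling and 6025 with quantile normalisation, against 9718 as reported. Higher calls were 6839 and 6256 under these scalings, against 3541. Where a mean of 5 TPM was required, lower calls were 5421, a count over fewer genes tested. Median-of-ratios scaling also gave 2255 lower and 2706 higher calls for P21 against P14, and 1993 lower and 2275 higher for the difference between weeks, beside 3195 and 1418 as reported. Leaving out each library gave 2064 to 3343 lower and 870 to 1364 higher calls for that difference. The count of the 10 genes that rose at P14 was 6 to 10 over left-out libraries, 6 with no filter and 10 where a mean of 5 TPM was required, and the count lower in the difference between weeks was 3 or 4.

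Signs turned only for changes that did not pass. For P21 against P14, leaving out each library gave -0.12 to 0.078 for Slc1a2, -0.25 to 0.024 for Slc1a3 and -0.085 to 0.044 for Gja1, Gja1 was -0.000739 with a pseudocount of 5 TPM, and Sparcl1 was 0.029 with median-of-ratios scaling. For the difference between weeks, Gfap was 0.052 with median-of-ratios scaling, 0.023 with quantile normalisation and -0.31 to 0.038 over left-out libraries, and Apoe was -0.10 to 0.20 over left-out libraries. The cause was not tested.

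Same-numbered libraries deviated together with correlations from -0.105 to 0.177, so the numbers were not taken to pair the libraries. With a replicate block no call of the 10 genes changed, and of the other genes followed Ndrg2 lost its call for P21 against P14 (0.41, adjusted p = 0.062). Without depth, genes near 2 TPM such as S100b and Aqp4 at P7 are the least certain.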
